A study of Mus musculus with 8 samples.

Results

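Chemokines are small secreted proteins that guide leukocytes through tissue, and each is read by one or several receptors of the G protein-coupled class. They are named by the spacing of their first cysteines as CC, CXC, XC and CX3C ligands, and their receptors follow the same names. In the liver, Kupffer cells, stellate cells, sinusoidal endothelium, bile duct cells and injured hepatocytes can all release them, and monocytes, neutrophils and lymphocytes carry the receptors. The genes described here are those whose symbols begin with a Ccl, Cxcl, Cx3cl, Xcl, Ccr, Cxcr, Cx3cr or Xcr stem followed by a number. The rule found 57 genes, 38 for ligands and 19 for receptors, among 22504 genes listed.

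Expression was measured by RNA sequencing in 8 Fah-/- mice of the 129S4 background. Fah is the last enzyme of tyrosine breakdown, and mice without it are kept healthy by NTBC, which blocks an earlier step of that pathway. The C 8w group (3 samples: 1a, 2a and 3a) had 8 weeks of moderate chronic liver injury (MCLI), in which NTBC was lowered to 2.5% of a full dose of 7.5 mg/L. The C 12w group (2 samples: 2e and 3e) had 12 weeks of MCLI, and the C 8w + A 4w group (3 samples: C096, C097 and C098) was taken off NTBC for 4 weeks after 8 weeks of MCLI, which is severe acute liver injury (SALI), and is named the SALI group here. The tissue was labelled liver in C 8w and SALI and tumor in C 12w, so the longer MCLI and the tumor tissue cannot be told apart, and no group on full NTBC was analysed here. The age and sex of the mice were not given in the sources used here.

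Values are FPKM, the fragments of a gene divided by its length and by the depth of the sample. Genes with at least 0.3 FPKM in at least 2 of the 8 samples were tested, 12862 of all genes and 30 of the 57 chemokine and receptor genes. Groups were compared as log2(FPKM + 1) in one limma fit, and a gene is called where its p-value, adjusted over all 12862 genes, was under 0.05. A fold change on this scale understates the change of a gene near or under 1 FPKM, and 11 of the 30 genes tested were under 1 FPKM in every sample.

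Facts of the whole series bear on these values. Every group lacks Fah, so no group tests the deletion, and Fah was still listed, at 13.5 to 16.8 FPKM in C 8w and C 12w and 5.02 to 6.36 in SALI. The SALI samples carry another kind of sample code than the other 5, so the code series and the acute injury cannot be told apart. Alb, the albumin gene, was listed at 0 in the 5 C 8w and C 12w samples and at 12946 to 16949.8 FPKM in SALI. Gapdh, a glycolytic gene that every cell uses, was between 0.0980 and 0.247 FPKM against 68.2 to 99.9. A value of 0 is therefore given here only as listed, and comparisons with SALI cross this difference, whereas C 12w and C 8w lie within one code series. Among the 30 genes tested, 27 had at most 2% of their 50-base transcript windows in another gene, and the others were Ccl19 (52.0%), Ccl21a (71.6%) and Ccl27a (45%), whose levels are uncertain for that reason. The protocol label names retinas, but 8 of 9 photoreceptor genes were under 0.3 FPKM in every sample and 11 hepatocyte genes summed to between 11496 and 31856 FPKM. Within C 12w the 2 samples were less alike than the samples of the other groups were: 6.56% of all genes tested differed between them by at least 1 on the log2 scale, against 0.933% over the range of the C 8w samples and 3.79% over that of SALI. Sample C097 had the highest macrophage marker sum, 550 FPKM over 11 genes, against 172 to 286 in the other 7 samples, and the highest monocyte marker sum, 157 FPKM over 8 genes, against 38.1 to 73.6.

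Many chemokine genes are switched on from short promoters that bind nuclear factor kappa B or interferon-regulated factors. The promoters of Cxcl10 and Cxcl1 are shown because both genes were called higher in C 12w than C 8w. They come from RefSeq (GRCm38.p6), run from 250 bases before the gene's start to 50 bases after it, and are written 5′ to 3′ on the strand of the gene. Capitals mark matches to a kappaB pattern, GGGNNNTTCC, or to an interferon-stimulated response element (ISRE) pattern, TTTCNNTTTC, on either strand.
Cxcl10 promoter, chr5:92348840-92349139, minus strand: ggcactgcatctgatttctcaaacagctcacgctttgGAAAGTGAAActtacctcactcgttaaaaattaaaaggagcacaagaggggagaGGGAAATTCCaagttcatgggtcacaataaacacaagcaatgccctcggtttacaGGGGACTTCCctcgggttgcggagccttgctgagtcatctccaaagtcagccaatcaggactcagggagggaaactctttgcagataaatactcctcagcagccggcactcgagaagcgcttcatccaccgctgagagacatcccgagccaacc
Cxcl1 promoter, chr5:90890995-90891294, plus strand: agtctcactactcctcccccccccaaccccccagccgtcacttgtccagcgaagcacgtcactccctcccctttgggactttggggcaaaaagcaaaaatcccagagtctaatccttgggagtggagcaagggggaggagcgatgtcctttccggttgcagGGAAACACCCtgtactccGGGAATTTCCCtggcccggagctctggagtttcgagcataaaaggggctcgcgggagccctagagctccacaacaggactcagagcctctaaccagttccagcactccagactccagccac
The Cxcl10 promoter held 1 ISRE match, GAAAGTGAAA, and 2 kappaB matches, GGGAAATTCC and GGGGACTTCC. The Cxcl1 promoter held 3 kappaB matches, of which GGGAATTTCC and GGAATTTCCC overlap in all but 1 base. Of the 30 genes tested, 22 had a promoter in the table, and 3 of these held the kappaB pattern (Ccl9, Cxcl1 and Cxcl10), against 5.56% of all 32851 promoters. The ISRE pattern was found in 3 (Ccl19, Cxcl10 and Cxcl14), against 3.44% of all promoters, and the GAS pattern, TTCNNNGAA, in 1 (Cxcl14), against 8.30%. A match is a description of the letters and not a site shown to be used. Cxcl9, the neighbour of Cxcl10 at a distance of 18.6 kilobases (GENCODE M21, GRCm38), had none of these patterns in its window.

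Most chemokine and receptor genes were listed at low FPKM in these samples, and a few ligands made up most of the summed FPKM. Of the 57 genes, 37 were under 1 FPKM in every sample, and 6 reached 10 FPKM in at least 1 sample: Ccl9, Cxcl12, Ccl6, Cxcl10, Cxcl13 and Cxcl1. The summed FPKM of the 38 ligand genes was between 103.7 and 106.2 in C 8w, between 77.8 and 132 in SALI, and 200 and 112 in C 12w samples 2e and 3e. The 19 receptor genes summed to far less, between 2.76 and 3.52 FPKM in C 8w, between 2.54 and 7.55 in SALI, and 5.33 and 10.2 in C 12w.

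The makeup of the ligand transcripts differed between groups. Ccl9 held between 39.2% and 44.3% of summed ligand FPKM in C 8w, between 21.5% and 35.4% in SALI and between 33.2% and 37.3% in C 12w. Ccl6 held between 5.87% and 7.27% in C 8w, between 21.3% and 25.5% in SALI and between 3.05% and 3.61% in C 12w. Cxcl10 was the second ligand of C 12w sample 2e with 23.9%, and held 4.33% in sample 3e and at most 1.35% elsewhere. Ccl2 held 3.14% and 7.28% of the ligand sum in C 12w and at most 0.50% in the other 6 samples.

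**Figure D1:**
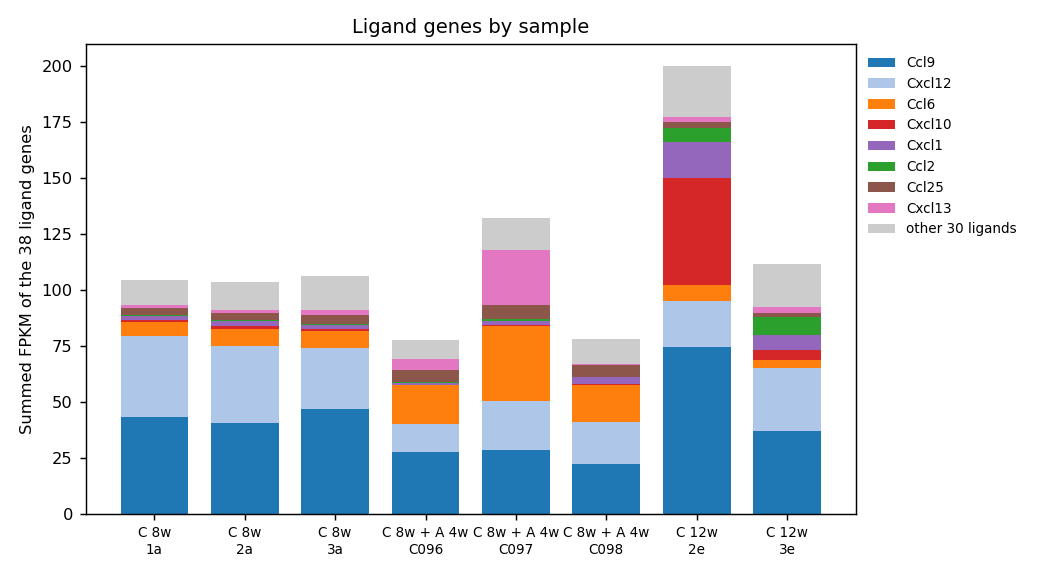
Stacked bars of FPKM for the 38 ligand genes (vertical axis, linear, from 0) in each of the 8 samples (horizontal axis), with 8 ligands coloured and the other 30 in grey. Ccl9 and Cxcl12 fill most of each C 8w bar, Ccl6 widens in the 3 SALI bars, and Cxcl10 fills 23.9% of the bar of C 12w sample 2e.

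In the comparison of 12 with 8 weeks of MCLI, the genes called higher in C 12w were the ligands Ccl2, Cxcl1 and Cxcl10 and the receptors Ccr2 and Cx3cr1, and Ccl24 was called lower. These are 6 of 30 genes, beside 17.8% of all genes tested that were called in this comparison (11.8% higher and 6.02% lower). The median log2 fold change of the 30 genes was 0.27, against 0.11 over all genes tested. Of these 30 genes 6 (Ccl7, Ccl8, Cxcl5, Cxcr3, Cxcr6 and Cx3cr1) passed the floor only with the C 12w samples counted. With the C 8w samples left out, 7 would not have passed, Ccl8, Cxcl5, Cxcr3 and Cxcr6 among them. The floor itself therefore favoured both directions, and nothing is read from this median.

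In the comparison of SALI with C 8w, 6 of the 30 genes were called as well, beside 35.3% of all genes tested (23.3% higher and 12.0% lower). Ccl6 and Ccl25 were called higher, and Ccl9, Cxcl12, Ccl27a and Xcl1 lower. No receptor gene was called, although 1 of the 7 had an unadjusted p under 0.05 in limma. The median log2 fold change was -0.10, against 0.11 over all genes tested. Here 7 of the 30 genes (Ccl8, Ccl19, Ccl21a, Cxcl5, Cxcr3, Cxcr6 and Xcl1) passed the floor only with the C 8w samples counted. With the SALI samples left out, 4 would not have passed (Ccl3, Ccl7, Ccl19 and Ccr1). The floor therefore favoured both directions, and nothing is read from this median either. Both comparisons use the same C 8w samples.

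Set directly against C 12w, the SALI group had the larger number of calls, 11 of 30 genes beside 31.4% of all genes tested (16.5% higher and 14.9% lower). Ccl6, Ccl24 and Ccl25 were called higher in SALI, and Ccl2, Ccl5, Ccl9, Cxcl1, Cxcl9, Cxcl10, Ccr2 and Cx3cr1 lower. The median log2 fold change was -0.26, against 0.0016 over all genes tested. It held the same 6 genes that passed the floor only through C 12w and the same 4 only through SALI, and nothing is read from it. Over the 3 groups, limma's moderated F test called 15 of the 30 genes, beside 45.9% of all genes tested. In total 14 genes were called in at least 1 comparison and 16 in none. Other scalings of the samples moved the all-gene values. Median-ratio scaling brought the all-gene median log2 fold change against C 8w from 0.11 to 0.0051 in SALI and to 0.0074 in C 12w, and the share of higher genes among all genes called from 66.0% to 50.2% and from 66.2% to 49.0%. Of the 30 genes it called 2 higher and 4 lower, and 5 higher and 2 lower, in these comparisons, beside 35.2% and 17.9% of all genes tested. Scaling to the same summed FPKM brought the share of higher genes in SALI against C 12w from 52.7% to 37.8%. With it 3 of the 30 genes were called higher and 9 lower, beside 29.2% of all genes tested. Quantile normalization called 1 higher and 5 lower in SALI against C 8w, and the call of Ccl25 was lost. It called 35.6% of all genes tested in this comparison, and 44.6% of those called were higher. In bulk tissue, fewer cells of a type and less RNA per cell cannot be told apart, and this holds for each result here.

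**Figure D2:**
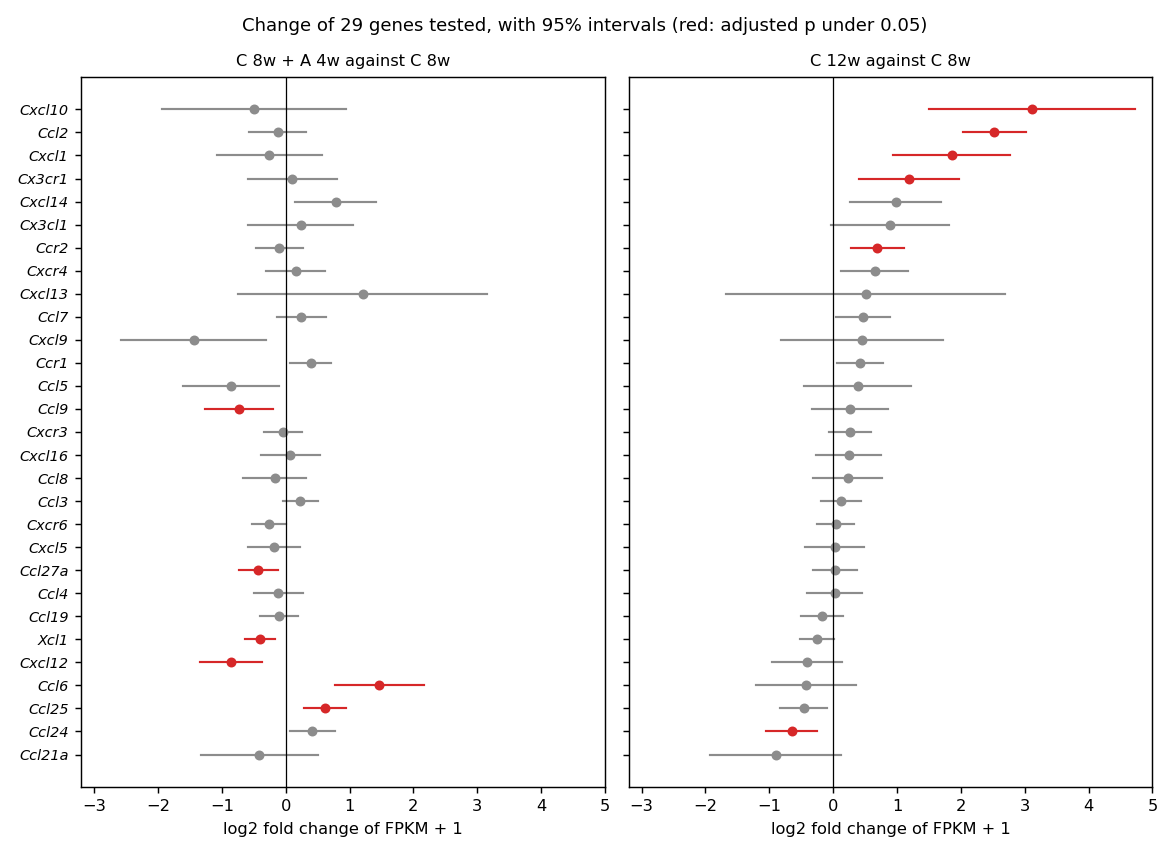
Log2 fold change of FPKM + 1 (horizontal axes) for 29 of the genes tested (vertical axis, ordered by the right panel), in SALI (C 8w + A 4w) against C 8w (left) and C 12w against C 8w (right). Points are limma estimates, lines are 95% intervals, and red marks an adjusted p under 0.05: Ccl6 stands highest on the left at 1.47, and Cxcl10, Ccl2 and Cxcl1 stand highest on the right at 3.11, 2.52 and 1.86.

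Monocyte-attracting CC ligands such as Ccl2 and Ccl7 act through Ccr2, the receptor that inflammatory monocytes use to leave bone marrow and enter tissue. Ccl2 (ENSMUSG00000035385), the main ligand of Ccr2, was at 0.254, 0.494 and 0.527 FPKM in C 8w samples 1a, 2a and 3a. It was at 0.32 and 0.661 FPKM in SALI samples C096 and C097 and listed at 0 in C098. It was at 6.29 and 8.14 FPKM in C 12w samples 2e and 3e. Both C 12w samples lay above all 6 others, and the other groups overlapped. The log2 fold change was 2.52 ± 0.21 (SE) in C 12w against C 8w (limma adjusted p = 0.000536), a ratio of mean FPKM of 17.0. SALI was lower than C 12w by a log2 fold change of -2.65 ± 0.21 (limma adjusted p = 5.62e-05). Between SALI and C 8w the difference was -0.13 with a 95% interval from -0.57 to 0.31 (limma adjusted p = 0.637), and its sign turned without sample C098, to 0.061.

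Ccr2 (ENSMUSG00000049103) was much lower in level than its ligand in C 12w. It was at 0.195, 0.290 and 0.306 FPKM in C 8w, at 0.0691, 0.397 and 0.0990 FPKM in SALI, and at 0.680 and 1.47 FPKM in C 12w. Both C 12w samples were again the highest. Ccr2 was higher in C 12w than C 8w by 0.69 ± 0.18 on the log2 scale (limma adjusted p = 0.0350) and lower in SALI than in C 12w, at -0.79 ± 0.18 (limma adjusted p = 0.0122). Without C 12w sample 3e the first of these was 0.41 (limma adjusted p = 0.133) and the second -0.51 (limma adjusted p = 0.0484). The second was lost in a fit of SALI and C 12w alone (limma adjusted p = 0.0508). The first call was also lost without any one C 8w sample or without C098. It was lost as well with no floor (limma adjusted p = 0.0587) and with 0.1 in place of 1 added to FPKM (limma adjusted p = 0.0596). In a fit of C 12w and C 8w alone its limma adjusted p was 0.0611.

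The other ligands of this group were low. Ccl7, which also binds Ccr2, was highest in C 12w sample 3e at 0.856 FPKM and no higher than 0.311 FPKM elsewhere. Ccl8 was measured only in C 8w sample 3a, at 0.440 FPKM, and in C 12w sample 3e, at 0.742 FPKM, and was listed at 0 in the other 6 samples. Ccl12 was under the floor, with 0.496 FPKM in C 12w sample 3e as its one value above 0.3. Neither Ccl7 nor Ccl8 was called in any comparison.

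The monocyte marker list, beside which the change of Ccl2 and Ccr2 stands, summed to between 43.9 and 59.8 FPKM in C 8w and to 70.6 and 73.6 in C 12w. With limma 0 of the 7 genes tested were called in this comparison (3 had an unadjusted p under 0.05), beside 17.8% of all genes tested. The macrophage and Kupffer cell list summed to between 238 and 286 FPKM in C 8w and to 221 and 172 in C 12w, with 0 of 11 genes called and 1 with an unadjusted p under 0.05. The stellate cell and fibroblast list summed to between 82.7 and 94.0 FPKM in C 8w and to 72.1 and 87.2 in C 12w. Among 8 stellate genes tested, 3 were called higher in C 12w and 1 lower, 50% in all beside 17.8% of all genes tested. One of the 3 was the collagen gene Col1a1, at 0.749 to 1.46 FPKM in C 8w and 2.97 and 8.29 in C 12w. The bile duct list summed to between 9.69 and 15.8 FPKM in C 8w and to 28.6 and 339 in C 12w, with 2 of 6 genes called higher. The part of any of these cells in the change of Ccl2 and Ccr2 was not tested.

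The neutrophil-attracting CXC ligands act through Cxcr2. Cxcl1 (ENSMUSG00000029380), a major one in mice, was at 2.09, 2.13 and 1.97 FPKM in C 8w and at 15.7 and 6.37 FPKM in C 12w samples 2e and 3e. It was at 0.619, 1.71 and 2.85 FPKM in SALI. Both C 12w samples lay above all others, and the C 8w samples lay within the range of SALI. The log2 fold change was 1.86 ± 0.40 in C 12w against C 8w (limma adjusted p = 0.0183), a ratio of mean FPKM of 5.35. Without sample 2e it was 1.27, and without sample 3e 2.45. The call was lost without any one C 8w sample. In SALI against C 12w the log2 fold change was -2.11 ± 0.40 (limma adjusted p = 0.00534).

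The rest of this group was low. Cxcl5 was between 0 and 0.541 FPKM and was not called. Cxcl2 and Cxcl3 were under the floor and Cxcl15 was listed at 0 in every sample. Their receptors Cxcr1 and Cxcr2 were under the floor too, with highest values of 0.214 and 0.428 FPKM. The neutrophil marker list summed to between 3.84 and 15.8 FPKM in C 8w and to 15.5 and 6.66 in C 12w, so these ranges overlapped. Of its 5 genes tested, 1 was called higher in C 12w, beside 17.8% of all genes tested that were called in this comparison. The part of these cells in the change of Cxcl1 was not tested.

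The interferon-inducible CXC ligands Cxcl9, Cxcl10 and Cxcl11 draw activated T and NK cells through Cxcr3. Cxcl10 (ENSMUSG00000034855) was at 0.849, 1.40 and 0.677 FPKM in C 8w, at 0.359, 0.346 and 0.456 FPKM in SALI, and at 47.8 and 4.84 FPKM in C 12w samples 2e and 3e. The 3 groups did not overlap, SALI being lowest and C 12w highest. The 2 C 12w samples differed from each other 9.88-fold. The log2 fold change was 3.11 ± 0.70 in C 12w against C 8w (limma adjusted p = 0.0213). Without sample 2e it was 1.58, and without sample 3e 4.64. The call was lost without any one C 8w sample. It was also lost with no floor (limma adjusted p = 0.0522) and in a fit of C 12w and C 8w alone (limma adjusted p = 0.0738). In SALI against C 12w the log2 fold change was -3.61 ± 0.70 (limma adjusted p = 0.00613). This was -2.08 without sample 2e and -5.14 without sample 3e. The difference between SALI and C 8w, -0.49 with a 95% interval from -1.94 to 0.95, did not pass the test.

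Cxcl9 (ENSMUSG00000029417) parted the C 12w samples in the same direction. It was at 1.99, 2.83 and 1.85 FPKM in C 8w, at 0.109, 0.347 and 0.0927 FPKM in SALI, and at 8.95 and 0.917 FPKM in C 12w samples 2e and 3e. Sample 2e lay above the C 8w range and sample 3e below it, and all 3 SALI samples lay below every other sample. Cxcl9 was lower in SALI than in C 12w, at -1.89 ± 0.56 (limma adjusted p = 0.0331). The call was lost without any one of the 6 samples of C 8w or SALI, and with no floor. It was also lost in a fit of SALI and C 12w alone (limma adjusted p = 0.0891). Without C 12w sample 2e the change was -0.70, and without sample 3e -3.08. Against C 8w the difference was -1.44, with a 95% interval from -2.58 to -0.30 and a limma adjusted p of 0.0534. Cxcl11 was under the floor, with its highest value, 0.174 FPKM, in C 12w sample 2e.

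Cxcr3 was at most 0.582 FPKM, in C 12w sample 2e, and was not called. The T cell marker list was low and summed to between 2.62 and 2.83 FPKM in C 8w, between 0.638 and 1.33 in SALI, and 3.92 and 2.21 in C 12w samples 2e and 3e. Of its 4 genes tested, 2 were called lower in SALI than in C 8w and 2 lower than in C 12w. In these comparisons 35.3% and 31.4% of all genes tested were called. The NK cell list summed to between 1.15 and 1.996 FPKM in C 8w, between 4.81 and 9.87 in SALI, and 3.86 and 1.19 in C 12w. Of its 4 genes tested, 1 was called higher in SALI than in C 8w, the transcription factor gene Eomes, which made 3.46 to 9.27 FPKM of the SALI sums. The other 3 NK genes tested had a negative sign in that comparison. Without Eomes, left out after its values were seen, the NK cell sum was between 1.11 and 1.91 FPKM in C 8w, between 0.602 and 1.51 in SALI, and 2.33 and 0.949 in C 12w samples 2e and 3e, so the high SALI sums rested on that gene. The part of T and NK cells in the values of Cxcl9 and Cxcl10 was not tested.

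The CC ligands of Ccr1 and related receptors include the most abundant chemokine genes of these livers. Ccl9 (ENSMUSG00000019122), a myeloid ligand of Ccr1 found in rodents, was at 43.2, 40.6 and 47.0 FPKM in C 8w. It was at 27.5, 28.4 and 22.2 FPKM in SALI and at 74.5 and 37.1 FPKM in C 12w samples 2e and 3e. All SALI samples lay below all others, and the C 12w samples lay on either side of the C 8w range. Ccl9 fell in SALI against C 8w by 0.73 on the log2 scale (SE 0.23, limma adjusted p = 0.0411). The call was lost without any one of the 6 samples of these groups, with limma adjusted p-values up to 0.127. It was also lost with no floor (limma adjusted p = 0.0749). Against C 12w the change was -0.99 ± 0.26 (limma adjusted p = 0.0209), and without C098 its limma adjusted p was 0.0671. Without C 12w sample 2e the change was -0.50 (limma adjusted p = 0.0493), and in a fit of these 2 groups alone the call was lost (limma adjusted p = 0.0686).

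Ccl6 (ENSMUSG00000018927), another myeloid ligand of Ccr1, moved the other way. It was at 6.13, 7.53 and 7.62 FPKM in C 8w, at 17.2, 33.7 and 16.6 FPKM in SALI, and at 7.22 and 3.40 FPKM in C 12w. The 3 SALI samples lay above all others, with C097 highest. Ccl6 was higher in SALI than in C 8w by 1.47 ± 0.30 (limma adjusted p = 0.00717), a ratio of mean FPKM of 3.17. Against C 12w it was higher by 1.89 ± 0.34 (limma adjusted p = 0.00422). Ccl6 and Ccl9 are neighbours on the minus strand of chromosome 11, with 9.245 kilobases between them in GENCODE M21 (GRCm38).

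Ccl6 had no 50-base window in another gene, and Ccl9 had 1.97% of its windows in one. The macrophage and Kupffer cell list summed to 236, 550 and 175 FPKM in C096, C097 and C098, against 238 to 286 in C 8w. None of its 11 genes was called between these groups, and 0 had an unadjusted p under 0.05 in limma. The monocyte list summed to 38.1, 157 and 53.9 FPKM in C096, C097 and C098, against 43.9 to 59.8 in C 8w, and the neutrophil list to between 8.81 and 11.4 FPKM in SALI, against 3.84 to 15.8. In the monocyte and neutrophil lists 1 gene each was called higher in SALI than in C 8w, of 7 and of 5 tested, beside 35.3% of all genes tested. The part of these cells in the changes of Ccl6 and Ccl9 was not tested. Without C097, the sample with the highest macrophage and monocyte sums, the log2 fold change of Ccl6 was 1.15 in place of 1.47, and still called. This does not test the part of those cells.

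Ccl5 (ENSMUSG00000035042), a ligand made by T and NK cells among others, was at 1.75, 1.65 and 2.01 FPKM in C 8w. It was at 0.269, 1.26 and 0.273 FPKM in SALI and at 4.62 and 1.37 FPKM in C 12w samples 2e and 3e. The SALI samples were the 3 lowest of all 8. Ccl5 was lower in SALI than in C 12w, at -1.25 ± 0.37 (limma adjusted p = 0.0337), and without C 12w sample 2e this was -0.62 and no longer called. The call was also lost without any one C 8w sample, without C096 or C098, with no floor, and in a fit of SALI and C 12w alone (limma adjusted p = 0.0945). Against C 8w it was -0.86, with a limma adjusted p of 0.0734. Ccl3 and Ccl4, the remaining ligands of this group, were at most 0.353 and 0.593 FPKM and were not called.

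Ccr1, a receptor of these ligands, was not called in any comparison. Ccr1 was between 0.0276 and 0.118 FPKM in C 8w, between 0.216 and 0.556 in SALI, and at 0.209 and 0.677 in C 12w. Ccr1 passed the floor only with the SALI samples counted. All C 8w samples were the lowest of the 8, with log2 fold changes of 0.39 (limma adjusted p = 0.0639) in SALI and 0.42 (limma adjusted p = 0.10) in C 12w. Ccr1l1, a close relative of Ccr1, was under the floor.

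Of the eosinophil and type 2 CC ligands only Ccl24 passed the floor. Ccl24 (ENSMUSG00000004814), eotaxin-2, attracts eosinophils through Ccr3 and can be made by macrophages. It was at 1.33, 1.40 and 1.24 FPKM in C 8w, at 2.39, 2.37 and 1.63 FPKM in SALI, and at 0.743 and 0.257 FPKM in C 12w. The 3 groups did not overlap, and C 8w lay between the others. Ccl24 was lower in C 12w than C 8w by a log2 fold change of -0.65 ± 0.17 (limma adjusted p = 0.0364), a call lost without any one C 8w sample and without C 12w sample 3e, where the change was -0.41. The call was also lost with no floor (limma adjusted p = 0.0665) and in a fit of C 12w and C 8w alone (limma adjusted p = 0.0557). Ccl24 was higher in SALI than in C 12w by 1.07 ± 0.17 (limma adjusted p = 0.00254). Its excess over C 8w in SALI, 0.42, had a limma adjusted p of 0.0657.

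Ccr3, the receptor of Ccl24, reached 1.52 FPKM in sample C097 and at most 0.237 FPKM elsewhere, so it did not pass the floor. Ccl11, the other eotaxin, had a highest value of 0.272 FPKM. Ccl1, Ccl17, Ccl22 and Ccl26 of this group were under the floor as well, as were the receptors Ccr4 and Ccr8.

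Among the homeostatic and mucosal CC ligands, Ccl25 was the most abundant in every sample. Ccl25 (ENSMUSG00000023235), the ligand of Ccr9 known from thymus and small intestine, was at 3.25, 3.12 and 3.97 FPKM in C 8w, at 5.58, 6.50 and 5.38 FPKM in SALI, and at 2.69 and 1.79 FPKM in C 12w. The 3 groups did not overlap. Ccl25 was higher in SALI than in C 8w by 0.62 ± 0.14 (limma adjusted p = 0.0115; 0.0523 without C 8w sample 1a, and 0.0680 under quantile normalization) and higher than in C 12w by 1.08 ± 0.16 (limma adjusted p = 0.00168). Between C 12w and C 8w the difference was -0.46, with a limma adjusted p of 0.0785. Its receptor Ccr9 was under the floor, at most 0.0732 FPKM.

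Ccl27a (ENSMUSG00000073888), a ligand of Ccr10, was at 0.471, 0.407 and 0.712 FPKM in C 8w, at 0.222, 0.0377 and 0.151 FPKM in SALI, and at 0.350 and 0.787 FPKM in C 12w. It was lowest in the 3 SALI samples. Ccl27a fell in SALI against C 8w by 0.43 on the log2 scale (SE 0.13, limma adjusted p = 0.0385). The call was lost without any one sample of these groups and with no floor (limma adjusted p = 0.0503). This gene shares 45% of its 50-base windows with another gene, and its near-identical copy Ccl27b was listed at 0 in every sample.

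Ccl19 and Ccl21a, the ligands that bring T cells and dendritic cells to lymphoid tissue through Ccr7, were not called. Ccl19 was at most 0.351 FPKM. Ccl21a ran from 0 to 1.94 FPKM within SALI alone, and its copy Ccl21b was listed at 0 in every sample. Ccl20 and Ccl28 were under the floor, as were the receptors Ccr6, Ccr7 and Ccr10. The one value of Ccl20 above 0.3 was 0.671 FPKM in C 12w sample 3e.

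Of the 4 homeostatic and other CXC ligands tested, Cxcl12 was called in a comparison of 2 groups, and Cxcl13, Cxcl14 and Cxcl16 were not. Cxcl12 (ENSMUSG00000061353), which holds leukocytes and progenitors in place through Cxcr4, was the second ligand of C 8w, at 36.3, 34.3 and 27.2 FPKM. It was at 12.7, 22.0 and 18.9 FPKM in SALI and at 20.7 and 28.1 FPKM in C 12w. The SALI samples lay below all C 8w samples, and C 12w overlapped both groups. Cxcl12 fell in SALI against C 8w by 0.86 on the log2 scale (SE 0.21, limma adjusted p = 0.0160), a call lost without C 8w sample 1a or 2a, with limma adjusted p-values of 0.0675 and 0.0563.

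Markers of sinusoidal endothelium, cells known to make Cxcl12 in liver, summed to between 53.9 and 57.9 FPKM in C 8w, between 26.0 and 44.1 in SALI, and 33.4 and 26.9 in C 12w. Of these 7 genes, 4 were called lower and 1 higher in SALI than in C 8w, 71.4% in all beside 35.3% of all genes tested. The part of these cells in the change of Cxcl12 was not tested. Cxcr4 was highest in C 12w sample 3e at 2.16 FPKM and between 0.382 and 0.954 FPKM in the other 7 samples. Its log2 fold change in C 12w against C 8w was 0.65, with a limma adjusted p of 0.0829.

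Cxcl13, the B cell attracting ligand of Cxcr5, had the widest range within a group of the 30 genes tested on the log2(FPKM + 1) scale. It was at 4.77, 24.3 and 0.406 FPKM in C096, C097 and C098, a span that held all values of the other groups (1.02 to 2.86 FPKM), and it was not called. Cxcr5 was under the floor. Cxcl14, a ligand expressed in many epithelia, was between 0.753 and 0.901 FPKM in C 8w and higher in each of the other 5 samples, from 1.41 in C096 to 4.18 in C 12w sample 3e. The F test over the groups called it (limma adjusted p = 0.0494), and no single comparison did: the limma adjusted p was 0.0582 in SALI and 0.0632 in C 12w, each against C 8w. Cxcl16, the ligand of Cxcr6, was between 2.41 and 5.03 FPKM over all samples, Cxcr6 was at most 0.467 FPKM, and neither was called. Cxcl17 was under the floor.

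The XC and CX3C genes form a pair of small systems. Xcl1 (ENSMUSG00000026573), released by NK and CD8 T cells to draw dendritic cells that carry Xcr1, was at 0.443, 0.411 and 0.326 FPKM in C 8w. It was at 0.162 FPKM in C097 and listed at 0 in C096 and C098, and at 0.259 and 0.0823 FPKM in C 12w. All C 8w samples were higher than the 5 others. Xcl1 fell in SALI against C 8w by 0.41 on the log2 scale (SE 0.10, limma adjusted p = 0.0161). It passed the floor only through the C 8w samples, the group where it was high, so the floor favoured this direction. The call was lost without C 8w sample 1a or 2a and without C096 or C098. Xcr1 was under the floor, at most 0.0481 FPKM.

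Cx3cr1 (ENSMUSG00000052336), the receptor of patrolling monocytes and of several tissue macrophages, was at 0.0274, 0.0730 and 0.0989 FPKM in C 8w. It was at 0.0374, 0.222 and 0.189 FPKM in SALI and at 0.468 and 3.0 FPKM in C 12w samples 2e and 3e. Both C 12w samples were above all others, sample 3e by far. Cx3cr1 was higher in C 12w than C 8w by 1.18 ± 0.34 (limma adjusted p = 0.0463) and lower in SALI than in C 12w, at -1.08 ± 0.34 (limma adjusted p = 0.0423). It passed the floor only through the 2 C 12w samples, the group where it was high, so the floor favoured both directions. With no floor both calls were lost, with limma adjusted p-values of 0.0911 and 0.0823, and in fits of the groups compared alone both had a limma adjusted p of 0.112. Each was also lost without any one of the 6 samples of C 8w or SALI. Without C 12w sample 3e the first change was 0.46 and the second -0.36 (no longer called), and without sample 2e they were 1.91 and -1.80.

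Cx3cl1, fractalkine, the ligand of Cx3cr1 that is held on the cell surface, showed its highest value in the same sample. It was at 0.501 and 3.72 FPKM in C 12w samples 2e and 3e, between 0.348 and 0.511 FPKM in C 8w and between 0.376 and 1.05 FPKM in SALI. Sample 2e lay within the C 8w range, and Cx3cl1 was not called in any comparison. The log2 fold change in C 12w against C 8w was 0.89, with a 95% interval from -0.035 to 1.82 (limma adjusted p = 0.154).

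**Figure D3:**
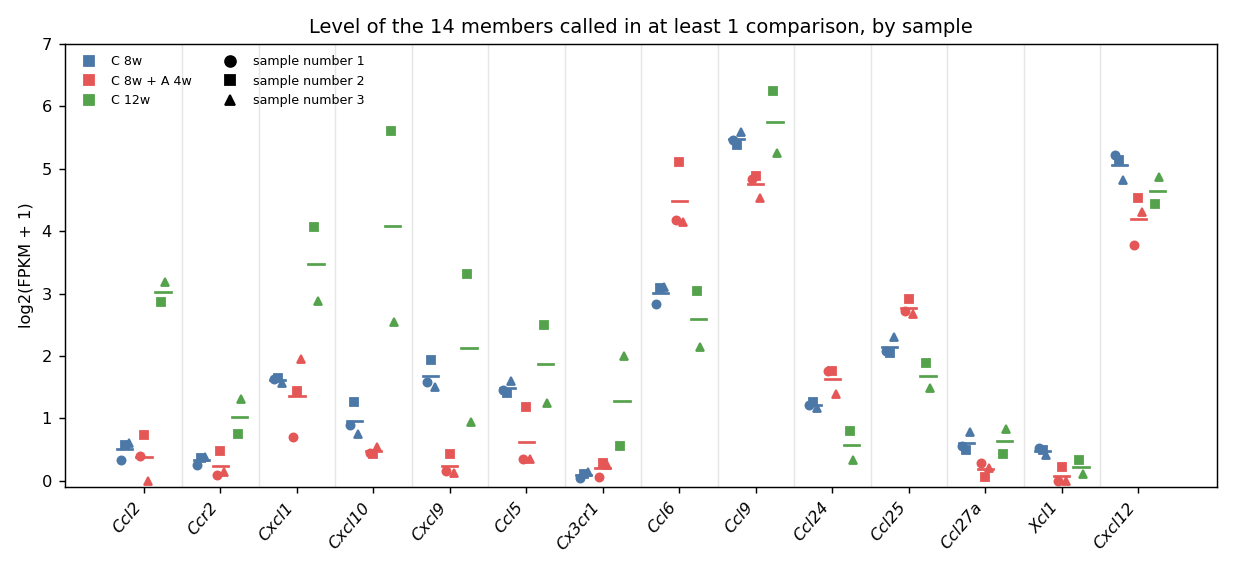
Log2(FPKM + 1) (vertical axis) of the 14 genes called in at least 1 comparison (horizontal axis), with 1 point per sample, colour for the group, shape for the sample number within its group and a line at the group mean. Both C 12w samples lie above all others for Ccl2, Ccr2, Cxcl1, Cxcl10 and Cx3cr1, and all 3 SALI samples lie above all others for Ccl6, Ccl24 and Ccl25 and below all others for Ccl5, Ccl9, Cxcl9, Cxcl10 and Ccl27a.

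The 2 tumor samples of C 12w differed in the levels of some chemokine genes. Between them, 7 of the 30 genes (23.3%) differed by at least 1 on the log2 scale, beside the 6.56% of all genes tested given above. Sample 2e was higher in Cxcl10, Cxcl9, Ccl5 and Cxcl1, the first of which differed 9.88-fold and the second 9.76-fold. Sample 3e was higher in Cx3cl1, Cx3cr1 and Cxcl14, by 7.43-fold, 6.41-fold and 2.85-fold. Ccl2 was shared by both, with a 1.29-fold difference. These are single samples, so the differences have no replicate check.

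Marker lists of other cell types differed between these samples too. The bile duct list summed to 28.6 FPKM in sample 2e and 339 FPKM in sample 3e, of which Spp1 alone made 22.2 and 311 FPKM. The NK cell list was at 3.86 and 1.19 FPKM and the T cell list at 3.92 and 2.21 FPKM in samples 2e and 3e. Eomes alone made 1.53 and 0.240 FPKM of the NK cell sums. Both lymphocyte sums were higher in the sample with the higher Cxcl9, Cxcl10 and Ccl5, for NK cells with Eomes and without it (2.33 and 0.949 FPKM). They were not alone in this. Sample 2e was also higher than 3e in the lists of eosinophils and mast cells (4.75 and 0.758 FPKM), B and plasma cells (37.9 and 13.8), neutrophils (15.5 and 6.66) and macrophages (221 and 172). The bile duct, dendritic cell, monocyte and stellate cell lists were higher in sample 3e. The part of any of these cells was not tested. In the other groups, 0 of the 30 genes ranged over at least 1 on the log2 scale among the C 8w samples, and 4 (13.3%) did so among the SALI samples, where C097 held the highest value for 20 of the 30 genes (66.7%, against 48.7% of all genes tested).

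**Figure D4:**
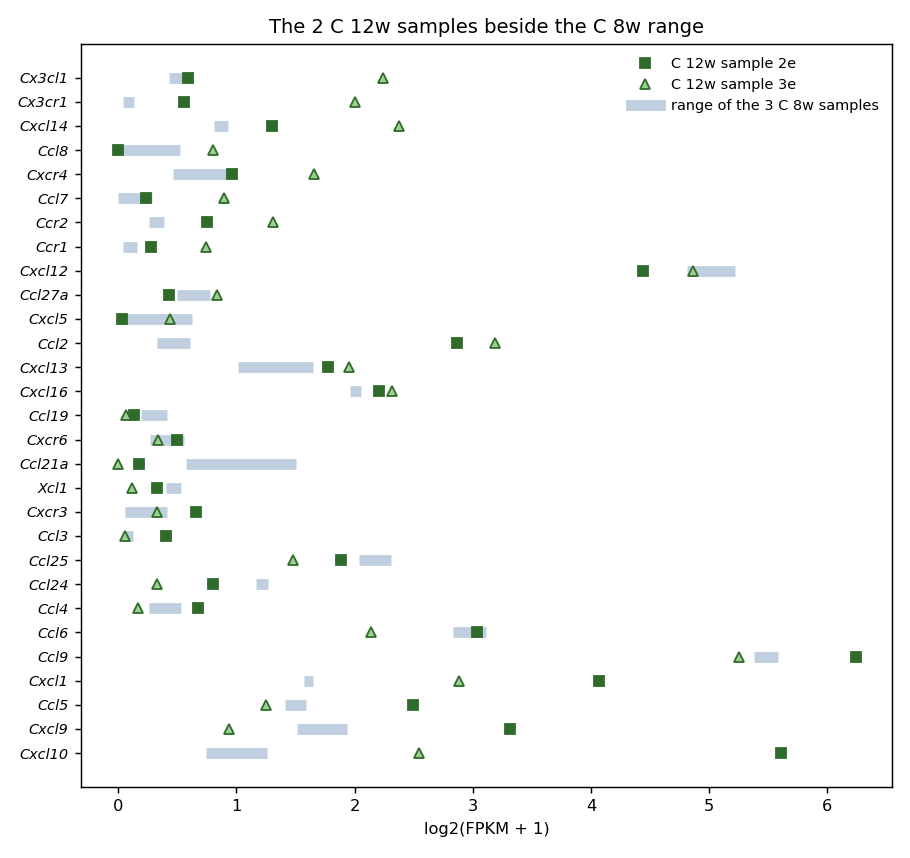
Log2(FPKM + 1) (horizontal axis) of 29 of the genes tested (vertical axis, ordered by the difference between the C 12w samples) in C 12w sample 2e (squares) and sample 3e (triangles), beside the range of the 3 C 8w samples (bars). Cxcl10 and Cxcl9 at the bottom are highest in sample 2e, Cx3cl1 and Cx3cr1 at the top are highest in sample 3e, and for Ccl2 both samples lie together, above the C 8w range.

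The genes under the floor complete the account. The 15 ligand genes were Ccl1, Ccl11, Ccl12, Ccl17, Ccl20, Ccl21b, Ccl22, Ccl26, Ccl27b, Ccl28, Cxcl2, Cxcl3, Cxcl11, Cxcl15 and Cxcl17, and the 12 receptor genes were Ccr1l1, Ccr3, Ccr4, Ccr6, Ccr7, Ccr8, Ccr9, Ccr10, Cxcr1, Cxcr2, Cxcr5 and Xcr1. Ccl1, Ccl21b, Ccl26, Ccl27b and Cxcl15 were listed at 0 in every sample. Just outside the floor lay 5 genes with a single sample at or above 0.3 FPKM, from Cxcr2 at 0.428 FPKM in C098 to Ccr3 at 1.52 FPKM in C097. Just inside it lay 7 genes with exactly 2 such samples, Ccl7, Ccl8, Ccl19, Cxcl5, Cxcr3, Cxcr6 and Cx3cr1. Some genes passed only through one group: 7 would not have passed without C 8w, 6 without C 12w and 4 without SALI.

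Other genes of the chemokine system were taken as lists of ligands with other symbols, atypical receptors, intracellular signalling, inducing cytokines and factors, and ligand trimming and anchoring. Of these, 55 genes passed the floor. In C 12w against C 8w 6 were called higher and 4 lower, in SALI against C 8w 9 higher and 3 lower, and in SALI against C 12w 7 higher and 8 lower. These are 18.2%, 21.8% and 27.3% of the 55 genes, beside 17.8%, 35.3% and 31.4% of all genes tested, so none of these shares stood far above the background. Their median log2 fold changes were 0.14, 0.044 and -0.095, beside 0.11, 0.11 and 0.0016 over all genes tested.

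Of 15 inducing cytokines and factors tested, 4 were called higher and 2 lower in C 12w than C 8w, beside 17.8% of all genes tested. In SALI against C 12w 2 were called higher and 5 lower, beside 31.4%. Tnfaip3, a target and brake of nuclear factor kappa B, was between 0.366 and 0.515 FPKM in C 8w, between 0.545 and 0.720 in SALI, and at 2.83 and 4.57 in C 12w. It was higher in C 12w than C 8w by 1.66 ± 0.16 (limma adjusted p = 0.000897). Nfkb2, a subunit of that factor, was between 1.77 and 2.33 FPKM in C 8w and at 6.84 and 4.33 in C 12w, a log2 fold change of 1.11 ± 0.20 (limma adjusted p = 0.00957). Relb, its partner, was between 0.379 and 0.537 FPKM in C 8w and at 2.56 and 1.19 in C 12w, a log2 fold change of 0.93 ± 0.22 (limma adjusted p = 0.0238). Relb, Nfkb2 and Tnfaip3 were 3 of the 4 genes called higher. The 2 called lower were Nfkbia, an inhibitor of the same factor, at -0.82 ± 0.18 (limma adjusted p = 0.0208), and Cebpb, a transcription factor of the acute phase response, at -1.26 ± 0.24 (limma adjusted p = 0.0111).

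None of these 15 genes was called between SALI and C 8w with limma, where 3 had an unadjusted p under 0.05, beside 35.3% of all genes tested that were called. Of the inducing cytokines, Tnf, Il6, Ifng and Lta were listed at no more than 0.216 FPKM in any sample, each at 0 in at least 1, and Il17a was listed at 0 in every sample. Il1b was between 0.469 and 2.31 FPKM and Il1a between 0.882 and 1.83 FPKM, and neither was called.

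Below the receptors, 25 genes were tested. Rgs16, which shortens G protein signals, was between 38.4 and 59.3 FPKM in C 8w, between 16.7 and 20.3 in SALI, and at 1.80 and 3.79 in C 12w. The groups did not overlap, and the log2 fold change in C 12w against C 8w was -3.66 ± 0.25 (limma adjusted p = 0.000277). Gnai1, an inhibitory G protein subunit, was between 0.845 and 1.47 FPKM in C 8w and between 8.05 and 12.7 in SALI, a log2 fold change of 2.38 ± 0.19 (limma adjusted p = 5.28e-05). In SALI against C 8w 7 of the 25 genes were called higher and 1 lower, 32% in all beside 35.3% of all genes tested.

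Among ligands with other symbols, Mif was between 52.9 and 58.7 FPKM in C 8w and between 315 and 444 in SALI. Its log2 fold change of 2.74 ± 0.15 (limma adjusted p = 4.36e-06) stood on a gene with 34.1% of its 50-base windows in another gene, and is uncertain for that reason. Dpp4, a protease that trims and inactivates several chemokines, was between 19.9 and 24.2 FPKM in C 8w, between 4.96 and 9.35 in SALI, and at 16.3 and 18.0 in C 12w. It fell in SALI against C 8w by 1.45 on the log2 scale (SE 0.21, limma adjusted p = 0.00117). Sdc4, a syndecan whose heparan sulfate can hold chemokines, was between 158 and 178 FPKM in C 8w and between 45.7 and 71.8 in SALI, and fell by 1.45 (SE 0.17, limma adjusted p = 0.000430). The last list held atypical chemokine receptors, which bind chemokines without G protein signals, and Cmklr1, the receptor of the attractant chemerin, which does signal through G proteins. Of this list 0 of 5 tested (Ackr1, Ackr2, Ackr3, Ccrl2 and Cmklr1) were called in any comparison with limma, and 2, 1 and 0 had an unadjusted p under 0.05 in SALI against C 8w, in C 12w against C 8w and in SALI against C 12w.

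The calls differed in how far they rested on single samples. Within the one code series, a fit of C 12w and C 8w alone called 2 of the 6 genes, Ccl2 (limma adjusted p = 0.00483) and Cxcl1 (limma adjusted p = 0.032), beside 11.9% of all genes tested. A fit of SALI and C 12w alone called 6 of the 11 genes, beside 18.2% of all genes tested. Leaving out either C 12w sample kept Ccl2, Cxcl1 and Cxcl10 past the threshold. It kept Cx3cr1 as well, at changes from 0.46 to 1.91, but that gene passed the floor only through these samples and was lost with no floor. Without any one C 8w sample Ccl2 alone of the 30 genes was called, and the share of all genes tested that were called fell too, to between 6.73% and 8.61%. With a replicate block on the sample numbers, in 4 samples, 0 of 30 genes and 0.0389% of all genes tested were called, and the limma adjusted p of Ccl2 was 0.0807. Ccl6 in SALI against C 8w, and Ccl2, Ccl6, Ccl24, Ccl25, Cxcl1 and Cxcl10 in SALI against C 12w, held under every alternative that gave a value for them.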

How the data were processed

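RNA sequencing values of 8 Fah-/- mice were used, grouped by their treatment labels as C 8w (3), C 8w + A 4w (3) and C 12w (2). The authors deposited FPKM values in one table of 22504 Ensembl mouse genes, of which 22314 had a symbol, with 0 columns of other samples. The submitters' processing notes name Bowtie 0.12.2 and mm8 without their role, and the quantifier and annotation are not given in the sources used here. FPKM holds no counts, so depth and counting error are unknown. Steps between values under 0.05 FPKM placed the relative size of 1 fragment in each sample at 0.949 to 1.091 times that of C 8w sample 1a.

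Genes with at least 0.3 FPKM in at least 2 samples (12862) were compared as log2(FPKM + 1) with limma 3.58.1 in R 4.3.3 (lmFit, eBayes with a trend, two-sided) in a joint fit of the 8 samples; p-values were adjusted over all genes by Benjamini-Hochberg, with 0.05 as the threshold. A moderated F test covered the 3 groups. The code was tested on simulated data. Nothing in the labels says that samples numbered alike share more than the number.

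The genes and lists were chosen with earlier results of these data known. Named with values in every sample are genes called in at least 1 comparison and Ccl2 and Ccr2; others are given by range and count, except single values that were picked after they were seen. Results for 1 gene are not reported here, and it was kept in the counts. Shared sequence was computed in Python 3.11.15 as how many in 100 of the 50-base windows of a gene (GENCODE M21 transcripts) another gene also holds. Promoters came from a RefSeq table on GRCm38.p6, matched by symbol.

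The alternatives were a pseudocount of 0.1, no floor or 1 FPKM in at least 4 samples, 4 other scalings, genes with at most 2% shared sequence, a fit of the compared groups alone, no trend in eBayes, a log2 change of 1 as a limit, each sample left out in turn and the replicate number as a block.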

Additional observations from a re-analysis of the deposited data

How the results depend on the processing

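Of 443 values under the alternatives, 356 kept direction and side of the threshold, 86 lost the threshold, 0 gained it and 1 reversed. These include 17 values each for Ccl2 and Ccr2 in C 8w + A 4w against C 8w, which were never called. Of these, 16 and 17 count as kept by staying uncalled, and only they could have gained the threshold. All 86 losses were among calls. The reversed value was the log2 fold change of Ccl2 in C 8w + A 4w against C 8w. It ran from -0.31 to 0.061 with a SALI (C 8w + A 4w) sample left out, the last without replicate 3. Of the 30 genes, 6 were called in C 8w + A 4w against C 8w. This was 10 with a pseudocount of 0.1 (35.9% of all genes called), 12 with only the groups compared (45.9%), 1 when a log2 change under 1 was left out (9.74%), and 1 to 12 with each sample left out (20.6% to 45.9%), beside 35.3% as reported. In C 12w against C 8w the 6 calls were 2 with no floor (10.2% of all genes), 2 with a floor of 1 FPKM in at least 4 samples (12 genes left, 19.2%), 2 with only the groups compared (11.9%), and 1 to 14 with each sample left out (6.73% to 34.4%), beside 17.8%. In C 8w + A 4w against C 12w the 11 calls were 7 with the higher floor (32.8%), 6 with only the groups compared (18.2%), and 7 to 15 with each sample left out (23.4% to 40.5%), beside 31.4%. The F test called 15 genes, 9 with the higher floor and 7 to 20 with each sample left out. The 15 genes stood beside 45.9% of all genes tested that the F test called as reported. Its shares of all genes under the alternatives are not given here, so nothing is read from these shifts in its count. Leaving out a C 12w sample leaves 1, which is then assumed to vary like the other groups. The cause of these shifts was not tested, apart from the smaller numbers of genes or samples by construction. With the replicate block on the numbers 2 and 3 of C 8w and C 12w, 0 of 30 genes and 5 of 12862 were called. The numbers showed no pairing (correlation of the difference between numbers 2 and 3 across genes, -0.16), and nothing is read from the lost calls. With the block the log2 fold changes of Ccl2, Cxcl1 and Cxcl10 were 2.43, 1.86 and 3.07, against 2.52, 1.86 and 3.11 as reported. Depth is unknown, and genes near 0.3 FPKM rest on few fragments.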
